A study of Mus musculus with 15 samples.

Results

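The 9 genes described here code for proteins of the myelin sheath of the central nervous system: Mbp, Mobp, Mal, Cldn11, Cnp, Mag, Mog, Opalin and Ermn. They were chosen by name, as major myelin protein genes, out of 43629 genes counted in whole mouse brain, and all 9 passed the filter on low counts, as did 15864 genes in all. The rule names genes and uses no measured value, but it was written with earlier results of these data known. Each gene was read as its count in each of 15 libraries, scaled to the size of the library, and compared between young and old mice and between 2 feeding regimens.

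Myelin is made in the brain by mature oligodendrocytes, which wrap their membrane around axons and press most of it into compact layers. Basic proteins hold the cytoplasmic faces of those layers together, channels of cytoplasm and tight junctions run through and along the sheath, and adhesion proteins sit at its innermost and outermost membranes. The mRNAs of these proteins are among the most abundant of oligodendrocytes, and new oligodendrocytes keep forming from precursor cells in the adult brain.

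RNA came from the whole brain of male C57BL/6J mice of wildtype genotype, with 1 library per mouse. Young mice were 3 months and old mice 24 months of age by the labels. The methods text gives a somewhat younger age for the start of work on the old mice. Within each age the mice either ate ad libitum (AL, with food at all times) or were kept on intermittent fasting (IF), here food on every other day, begun in early adulthood, so that the young IF mice had fasted only for a short time. There were 4 young AL, 3 young IF, 4 old AL and 4 old IF mice. Whole brain holds neurons, glia and vessels together, and in such bulk RNA fewer oligodendrocytes and less RNA per oligodendrocyte cannot be told apart. P-values set a difference between groups against the spread between mice within groups, which was estimated over all 15 mice.

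The libraries held 5198748 to 13610729 counts, of which the 9 genes took 0.345% to 0.528%. Young AL mouse 3 stood apart. It had the most counts but the fewest genes with a count, 17280 against 19054 to 20880, and its median correlation with the other libraries was 0.957 against 0.980 to 0.987. Results that rest on it are given with and without it. The file headers name 3 sequencing lanes. Every group had mice in lanes 1 and 2, but the young IF group had none in lane 3.

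Windows of 300 bases around the transcription starts, 250 before and 50 after, were found in the RefSeq promoter table (GRCm38.p6) for 8 of the 9 genes, with 3 windows for Mag and none for Mbp. The windows of 4 genes are shown because these genes mark the ends of what follows: Ermn had the largest age increase of the 9, Mog and Opalin were lower in old than in young IF mice without overlap, and Mobp differed most between the diets in old mice. Each is written 5′ to 3′ in the direction of the gene, and capitals mark letters searched for on both strands: CTGGCAC or CTGGTAC, of the kind bound by the oligodendrocyte factor MYRF, ACAAAG or ACAATG, of the kind bound by SOX factors, and CAGCTG, an E-box. A further search, for TATAAA on the strand of the gene, found nothing in the 10 windows.
Ermn promoter window, chr2:58052815-58053114, minus strand: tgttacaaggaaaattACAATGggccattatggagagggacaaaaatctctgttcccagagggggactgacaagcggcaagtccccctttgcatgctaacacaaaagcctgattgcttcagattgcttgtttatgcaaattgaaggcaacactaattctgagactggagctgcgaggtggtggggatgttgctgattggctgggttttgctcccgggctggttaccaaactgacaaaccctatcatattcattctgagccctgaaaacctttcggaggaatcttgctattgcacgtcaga
Mobp promoter window, chr9:120149492-120149791, plus strand: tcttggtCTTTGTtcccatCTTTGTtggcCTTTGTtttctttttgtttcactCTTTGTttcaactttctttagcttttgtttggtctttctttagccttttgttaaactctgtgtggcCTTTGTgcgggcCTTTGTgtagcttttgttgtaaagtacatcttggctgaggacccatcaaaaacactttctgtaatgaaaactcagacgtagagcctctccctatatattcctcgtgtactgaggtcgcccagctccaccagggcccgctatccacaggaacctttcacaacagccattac
Mog promoter window, chr17:37023349-37023648, minus strand: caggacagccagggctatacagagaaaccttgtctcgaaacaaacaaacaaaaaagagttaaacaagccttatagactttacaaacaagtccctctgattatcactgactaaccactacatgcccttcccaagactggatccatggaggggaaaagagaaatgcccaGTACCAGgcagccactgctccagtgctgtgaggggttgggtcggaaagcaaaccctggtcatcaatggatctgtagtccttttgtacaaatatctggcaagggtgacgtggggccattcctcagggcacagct
Opalin promoter window, chr19:41077064-41077363, minus strand: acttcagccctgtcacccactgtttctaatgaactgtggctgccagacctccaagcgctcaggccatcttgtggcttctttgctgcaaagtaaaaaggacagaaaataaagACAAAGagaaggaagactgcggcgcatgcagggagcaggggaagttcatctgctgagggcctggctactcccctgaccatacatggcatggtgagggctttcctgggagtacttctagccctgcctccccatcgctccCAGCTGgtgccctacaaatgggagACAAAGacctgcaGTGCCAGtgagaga
The MYRF letters stood in a window of Mog, Mag, Cnp and Opalin, and in 7.1% of all 32851 windows of the table. SOX letters stood in those of Mobp, which had 6, and of Opalin, Cnp, Mag and Ermn, against 28.6% of all windows, and the E-box stood in that of Opalin, against 16.3%. TATAAA was present in 8.32% of all windows. No marked match overlapped another. A match is a run of letters in a window and not a binding site, and the missing matches of Mal and Cldn11 concern these windows alone.

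Levels of different genes were compared per length of exon, as RPKM (reads scaled to exon length and library size). Mbp, the main basic protein of compact myelin, was highest in all 4 groups, with 215 ± 28.1 RPKM (SD, n = 4) in young AL, 227 ± 24.2 (SD, n = 3) in young IF, 281 ± 32.8 (SD, n = 4) in old AL and 258 ± 14.9 RPKM (SD, n = 4) in old IF mice. Opalin was lowest in all 4, between 9.35 RPKM in old IF and 13.2 RPKM in young IF mice. Within a mouse Mbp was 12.3 to 44.2 times as high as Opalin. Between them came Mal, Mobp, Cnp, Cldn11 and Mog, with Mal and Mobp overlapping in 3 of the 4 groups and separating only in old AL mice, where Mobp was higher in 4 of 4. At the lower end the order of Mag and Ermn changed. Ermn lay at 33.2 ± 4.69 RPKM and Mag at 37.5 ± 1.95 RPKM (SD, n = 4) in young AL mice, and in old AL mice Ermn lay at 49.5 ± 7.86 and Mag at 42.9 ± 4.22 RPKM (SD, n = 4), but the mice of the 2 genes overlapped in both groups.

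The main question was whether these genes differed with age under each diet. In AL mice 2 of the 9, Mbp and Ermn, were higher in old than in young mice at a false discovery rate (FDR) under 0.1 in edgeR's quasi-likelihood test, where 1.09% of all 15864 genes tested were called in either direction. The log2 fold changes of 7 of the 9 were above 0 and their median was 0.19, beside a median of -0.01 over all genes tested. In IF mice none of the 9 was called, beside 0.290% of all genes, and 7 of the 9 log2 fold changes were below 0, with a median of -0.20 beside -0.00036 over all genes. At an unadjusted p under 0.05 edgeR gave 5 of the 9 in IF mice, Ermn upwards and Mog, Mobp, Mal and Opalin downwards, beside 5.74% of all genes; DESeq2 called none and limma called Mog. With both diets averaged, Mbp and Ermn were called again, beside 2.30% of all genes.

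**Figure D1:**
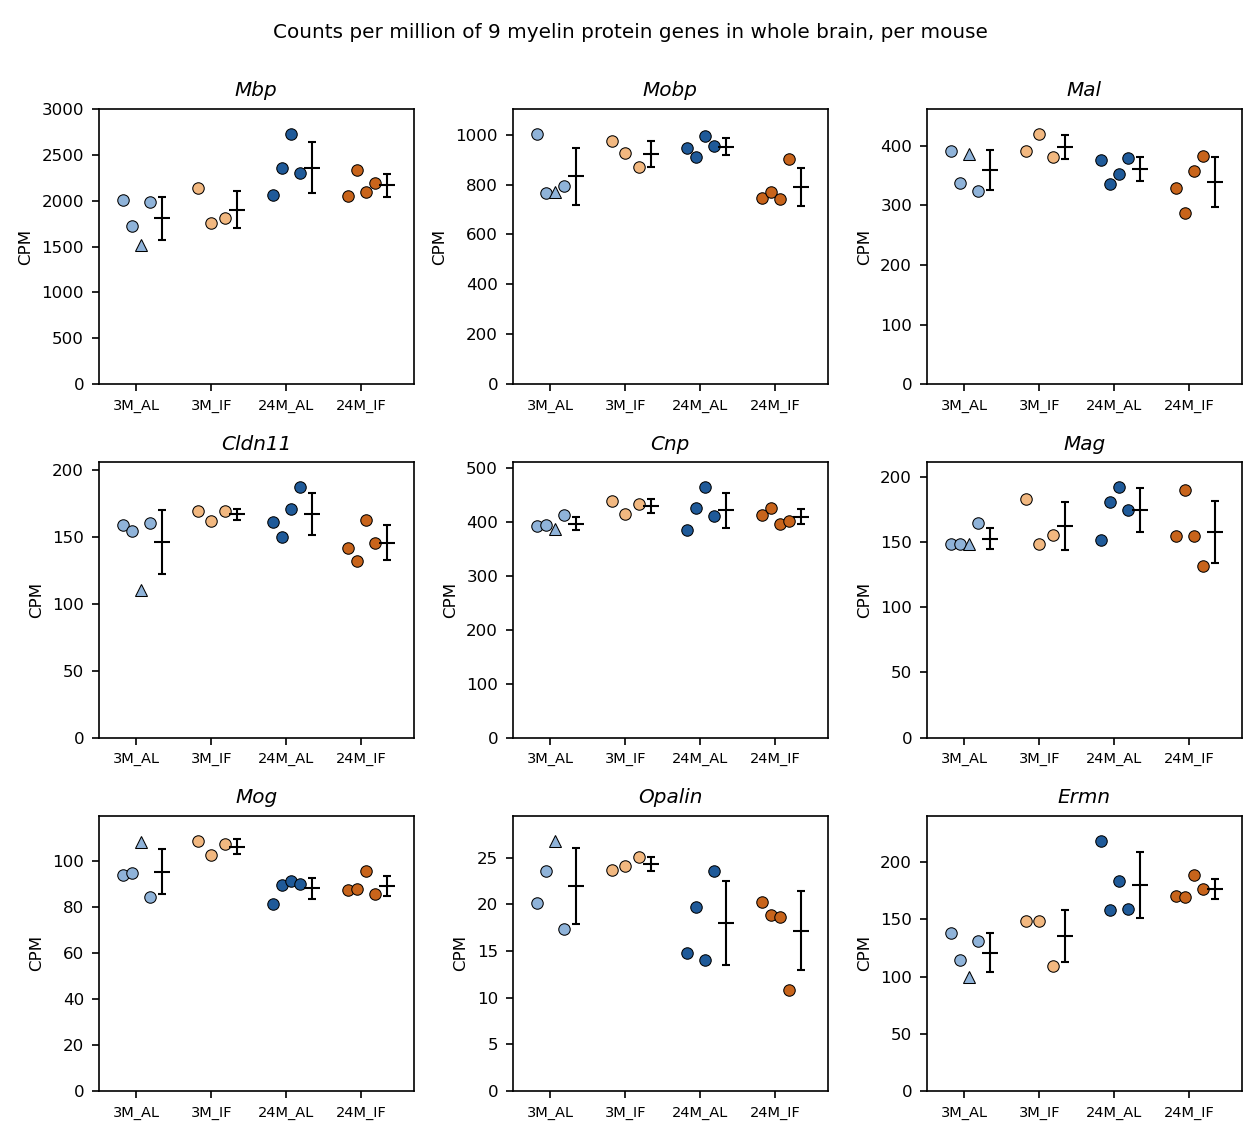
CPM (linear axis from 0) of the 9 genes in each mouse by group (3M for young, 24M for old). Each point is 1 mouse, the triangle is young AL mouse 3, and the bar beside the points is the mean with 1 SD. The old mice of both diets lie above all young mice of the same diet for Ermn, and Mobp in old AL mice lies above all old IF mice.

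Ermn codes for ermin, a cytoskeletal protein of myelinating oligodendrocytes that binds actin. It was at 138, 114, 99.9 and 131 CPM (counts scaled to library size) in young AL mice and at 219, 158, 184 and 159 CPM in old AL mice. Each old AL mouse lay above each young one. The mean rose from 121 ± 17.1 to 180 ± 28.6 CPM (SD, n = 4 each), a log2 fold change of 0.58 (SE 0.114, edgeR FDR 0.0125). Without young AL mouse 3 it was 0.50 (edgeR FDR 0.039). Within lanes 1, 2 and 3, with 1 or 2 mice per group in each, the difference in log2 CPM was 0.80, 0.77 and 0.28. The sign of these was fixed by the lack of overlap. The call was kept in 25 of 25 alternative settings, with log2 fold changes from 0.46 to 0.66. In IF mice Ermn was at 148, 149 and 109 CPM in young and at 171, 169, 189 and 177 CPM in old mice, again without overlap. Its log2 fold change there was 0.38 (SE 0.124, edgeR FDR 0.560), and averaged over the diets it was 0.48 (SE 0.0846, edgeR FDR 0.00275). Exons of Ermn (chromosome 2, 58045113 to 58052864, minus strand, GRCm38) overlap those of Galnt5 on the opposite strand, and the counting used the strand.

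Mbp (chromosome 18, 82475146 to 82585637, plus strand) was at 2013, 1722, 1513 and 1983 CPM in young AL mice and at 2065, 2355, 2729 and 2299 CPM in old AL mice. Every old AL mouse was above every young one, by a narrow margin between the highest young and the lowest old mouse. The mean rose from 1807 ± 236 to 2362 ± 275 CPM (SD, n = 4 each), a log2 fold change of 0.39 (SE 0.0925, edgeR FDR 0.0515). This call rested on single mice: it was lost without young AL mouse 2 (log2 fold change 0.36, FDR 0.146), young AL mouse 3 (0.32, FDR 0.156), old AL mouse 2 (0.39, FDR 0.117) or old AL mouse 3 (0.31, FDR 0.259). Within lanes 1, 2 and 3, with 1 or 2 mice per group in each, the difference in log2 CPM was 0.15, 0.74 and 0.21. The sign of these was fixed by the lack of overlap, and young AL mouse 3 was the only young AL mouse of lane 2. The call was also lost with the lane as a covariate (log2 fold change 0.39, FDR 0.101), with a replicate block (0.39, FDR 0.102) and in a fit of the 2 AL groups alone (0.39, FDR 0.192), while DESeq2 and limma called Mbp. In IF mice Mbp was at 2136, 1757 and 1817 CPM in young and at 2048, 2333, 2097 and 2194 CPM in old mice, which overlapped, with a log2 fold change of 0.19 (SE 0.1001, edgeR FDR 0.931). Averaged over the diets it was 0.29 (SE 0.0682, edgeR FDR 0.0346), and this call was lost only without young IF mouse 2 (0.26, FDR 0.132) among 24 alternatives. Ermn and Mbp were the members whose groups did not overlap between old and young AL mice, beside 4.56% of all genes in either direction.

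Among the other proteins of the compact sheath and its junctions, the age differences of Mobp and Cldn11 were above 0 in AL and below 0 in IF mice, that of Mal was near 0 in AL and below 0 in IF mice, and none passed the test. Mobp, a small basic protein of compact myelin (chromosome 9, 120149742 to 120181484, plus strand), was at 1003, 767, 769 and 793 CPM in young AL mice and at 946, 911, 994 and 952 CPM in old AL mice. In IF mice it was at 974, 927 and 871 CPM in young and at 747, 769, 744 and 902 CPM in old mice. Young AL mouse 1 overlapped the old AL mice and old IF mouse 4 overlapped the young IF mice, while all other mice separated by age. The log2 fold change with age was 0.19 (SE 0.0824, edgeR FDR 0.458) in AL and -0.22 (SE 0.0888, edgeR FDR 0.761) in IF mice. Without young AL mouse 1 the AL value was 0.30 and was called (edgeR FDR 0.0575).

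Cldn11, which forms the tight junctions of central myelin (chromosome 3, 31149920 to 31164324, plus strand), was at 159, 155, 111 and 161 CPM in young AL and at 161, 151, 171 and 187 CPM in old AL mice. The low young value was that of mouse 3, and without it the age difference in AL mice fell from 0.20 (SE 0.101, edgeR FDR 0.543) to 0.09 (edgeR FDR 0.942). In IF mice Cldn11 was at 170, 163 and 169 CPM in young and at 142, 132, 163 and 146 CPM in old mice, where the highest old mouse was just above the lowest young one. The log2 fold change was -0.20 (SE 0.109, edgeR FDR 0.931). Mal, a proteolipid that takes part in sorting membrane to myelin (chromosome 2, 127633226 to 127656695, minus strand), was at 391, 338, 386 and 324 CPM in young AL and at 376, 335, 353 and 379 CPM in old AL mice, with a fold change of 0.01 on the log2 scale (SE 0.0832, 95% interval -0.17 to 0.18). In IF mice it was at 392, 420 and 382 CPM in young and at 329, 287, 357 and 384 CPM in old mice, and only old mouse 4 reached the young range. The log2 fold change there was -0.23 (SE 0.0896, edgeR FDR 0.751).

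Cnp codes for an enzyme of the cytoplasmic channels of the sheath that is widely used as an oligodendrocyte marker (chromosome 11, 100574904 to 100591729, plus strand). It had the smallest ratio of the 9 between the highest and the lowest of the 15 mice, 1.20, and a coefficient of variation of 3% to 7.79% within groups. Young AL mice had 393, 395, 386 and 414 CPM, young IF mice 439, 415 and 433, old AL mice 386, 426, 465 and 411, and old IF mice 414, 427, 396 and 403 CPM. Its age difference was 0.09 (95% interval -0.04 to 0.22) in AL and -0.07 (95% interval -0.21 to 0.07) in IF mice on the log2 scale. Its exons overlap those of Dnajc7 on the opposite strand, and the counting used the strand.

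Mag, an adhesion protein of the membrane next to the axon (chromosome 7, 30899176 to 30914873, minus strand), was at 149, 148, 149 and 164 CPM in young AL and at 151, 180, 192 and 174 CPM in old AL mice. In IF mice it was at 183, 148 and 156 CPM in young and at 154, 190, 155 and 132 CPM in old mice. The groups overlapped under both diets, and the age difference was 0.19 (95% interval -0.01 to 0.39) in AL and -0.05 (95% interval -0.27 to 0.17) in IF mice on the log2 scale.

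Mog and Opalin, both membrane glycoproteins, were lower in every old IF mouse than in every young IF mouse. Mog, which sits on the outermost surface of the sheath (chromosome 17, 37010743 to 37023398, minus strand), was at 109, 103 and 107 CPM in young and at 87.2, 87.5, 95.6 and 85.6 CPM in old IF mice, a log2 fold change of -0.25 (SE 0.0838, unadjusted p = 0.00624, edgeR FDR 0.566). Opalin, a protein of the paranodal loops (chromosome 19, 41062474 to 41077113, minus strand), was at 23.7, 24.1 and 25.1 CPM in young and at 20.3, 18.9, 18.7 and 10.9 CPM in old IF mice, a log2 fold change of -0.50 (SE 0.196, unadjusted p = 0.0192, edgeR FDR 0.760). Neither passed the adjusted test, and with Ermn they were the 3 members whose IF groups did not overlap, beside 9.04% of all genes. In AL mice both overlapped between the ages. Mog was at 93.6, 94.6, 108 and 84.3 CPM in young and at 81.1, 89.6, 91.0 and 90.0 CPM in old AL mice (log2 fold change -0.12, SE 0.0780, edgeR FDR 0.676). Opalin was at 20.1, 23.6, 26.8 and 17.4 CPM in young and at 14.8, 19.7, 14 and 23.6 CPM in old AL mice (log2 fold change -0.27, SE 0.182, edgeR FDR 0.683). Young AL mouse 3 was the highest of its group for both, and without it the AL values moved to -0.04 and -0.14. Without old AL mouse 4, the highest of its group for Opalin, the AL value of Opalin was -0.43 (edgeR FDR 0.499), and without old IF mouse 4, the lowest of its group, the IF value was -0.33 (edgeR FDR 1). Averaged over the diets, the log2 fold change was -0.19 for Mog (SE 0.0572, edgeR FDR 0.140) and -0.38 for Opalin (SE 0.134, edgeR FDR 0.210), neither called. Mog was called there by DESeq2 (-0.18, FDR 0.0863) and by edgeR without young AL mouse 4 (-0.21, FDR 0.0635).

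**Figure D2:**
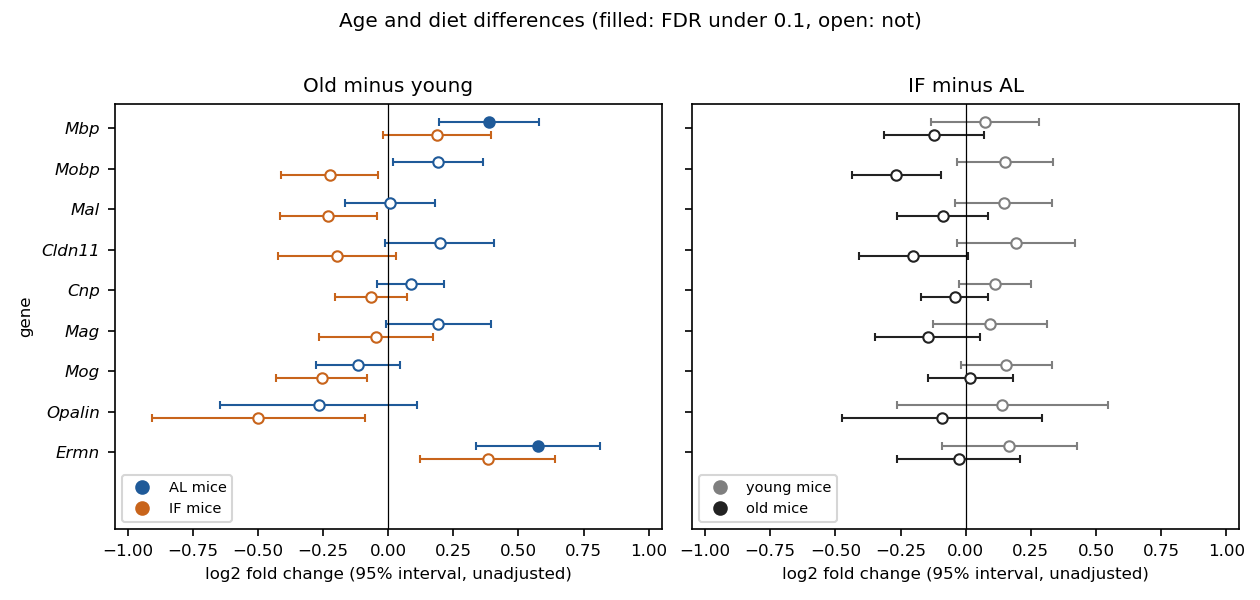
Log2 fold changes of the 9 genes with 95% intervals that are not adjusted for the number of genes. The left panel shows old over young in AL and in IF mice, the right panel IF over AL in young and in old mice. Filled points passed FDR 0.1 in edgeR's test and open ones did not. Filled points stand for Mbp (0.39) and Ermn (0.58) in AL mice alone.

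The second question was whether the diets differed at either age. In edgeR's quasi-likelihood test no member was called between the diets at either age or averaged over the ages, and the share of all genes called was 0% in each (0 of 15864 genes). At an unadjusted p under 0.05, edgeR gave 0, 1 and 0 of the members, beside 4.14%, 2.58% and 4.51% of all genes, and neither DESeq2 nor limma called a member. In young mice the 9 log2 fold changes of IF over AL lay between 0.07 for Mbp and 0.19 for Cldn11, with a median of 0.15. Without young AL mouse 3 that of Cldn11 was 0.08 and that of Mbp was -0.000914. In old mice 8 of the 9 were below 0, with a median of -0.09. The sign in young and in old mice rests on separate mice, but the 9 genes come from the same libraries and are not 9 independent observations.

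Mobp had the largest diet difference of the 9 in old mice. All 4 old IF mice lay below all 4 old AL mice, with means of 791 ± 75.3 and 951 ± 34.2 CPM (SD, n = 4 each), a log2 fold change of -0.27 (SE 0.0825, 95% interval -0.44 to -0.09, unadjusted p = 0.00403, edgeR FDR 0.9999). By unadjusted p it ranked 35 of 15864 genes. Within lanes 1, 2 and 3, with 1 or 2 mice per group in each, the difference in log2 CPM was -0.34, -0.31 and -0.22. Its sign was fixed in advance, since the 2 groups did not overlap, so the lanes are no separate test. No other member was without overlap in old mice, beside 2.59% of all genes. In young mice the IF and AL groups did not overlap for Cnp and Cldn11, both higher in IF mice, beside 4.45% of all genes. Cldn11 was 146 ± 23.9 CPM in young AL (SD, n = 4) and 167 ± 4.06 CPM in young IF mice (SD, n = 3), and 158 ± 2.96 CPM in young AL mice without mouse 3 (SD, n = 3). For Cnp the young means were 397 ± 11.9 CPM in AL (SD, n = 4) and 429 ± 12.9 CPM in IF mice (SD, n = 3).

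The third question was whether the age difference itself differed between the diets, which was tested as the interaction. The interaction equals the diet difference in old mice minus that in young mice. Most of its signs therefore follow from the diet differences given above and are no separate result. The 9 genes share their libraries and are not 9 independent observations. All 9 interaction values, the age difference in IF minus that in AL mice, were below 0, with a median of -0.23 beside 0.01 over all genes, and none was called (edgeR, 0% of all genes called, 2 members and 2.28% of all genes at an unadjusted p under 0.05; DESeq2 and limma called no member). The value was -0.42 for Mobp (SE 0.121, 95% interval -0.67 to -0.16, unadjusted p = 0.00250, edgeR FDR 0.9998), which ranked 16 of 15864 genes by unadjusted p, and -0.40 for Cldn11 (SE 0.148, unadjusted p = 0.0144, edgeR FDR 0.9998). Without young AL mouse 3 they were -0.38 and -0.28. That of Opalin was -0.23 (SE 0.268) and moved to -0.06 without old AL mouse 4 and to -0.35 without young AL mouse 3. For Ermn and Mbp, which were called in AL mice and not in IF mice, the interaction was -0.19 (95% interval -0.54 to 0.16) and -0.20 (95% interval -0.48 to 0.08), so the diets were not shown to differ in their age difference. Values below 0 were not particular to the 9 genes. In each list of other oligodendrocyte genes described below, most interactions were below 0 and none was called. Those above 0 were 3 of 23 other myelin proteins, 3 of 8 lipid synthesis genes and 2 of 10 transcription factors. The same held for 4 of 18 other mature oligodendrocyte genes and 2 of 13 precursor genes, beside 8165 of all 15864 genes tested.

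The 9 genes did not rise and fall together between mice of a group. Pearson's r of the deviations of log2 CPM from the group means, taken over the 15 mice as a description, ranged from -0.74 to 0.76 over the 36 pairs of members, with a median of 0.03 and 19 pairs above 0. Mbp, Cnp and Mag went together (r of 0.75 for Mag with Cnp, 0.76 for Mbp with Cnp and 0.62 for Mbp with Mag), while Mal ran against Mag (-0.74) and Cnp (-0.60). Mog and Opalin went together (0.54), and both ran against Ermn (-0.54 each). Without young AL mouse 3 these were 0.75, 0.79, 0.70, -0.75, -0.57, 0.46, -0.33 for Mog with Ermn and -0.45 for Opalin with Ermn. All deviations share the libraries, their depth and their scaling.

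**Figure D3:**
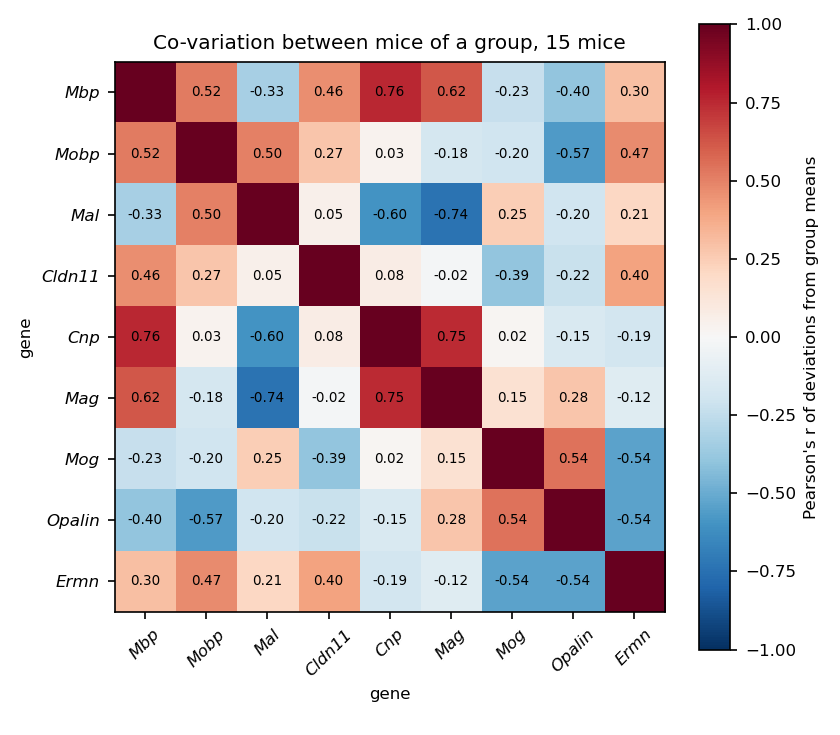
Pearson's r between the deviations of log2 CPM from group means for each pair of the 9 genes over 15 mice, from -1 (blue) to 1 (red). Mbp, Cnp and Mag form a red block, and Mal with Mag is the deepest blue at -0.74.

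Correlated with the mean of the other members, Mbp was highest (0.40) and Opalin lowest (-0.41) over 15 mice, while without young AL mouse 3 Mog was highest (0.52, from -0.01) and Mbp was at 0.36, with Opalin still lowest (-0.30). Of 14115 other genes that reached an average log2 CPM of 1, those most like the mean of the 9 over the 15 mice were Ap1s3 (r of 0.89), Gm37459 (0.85), Krt12 (0.82), Gm26645 (0.81) and Pabpc4 (0.78). None of these 5 was on a list of oligodendrocyte genes used here. They were picked as the highest of 14115 values over 15 mice, and such picking alone yields high values. Their r is therefore no test of a link with the 9 genes. The deviations of that mean in single mice were small, between -0.06 and 0.08 on the log2 scale, so that the likeness follows small differences between mice.

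Other genes of the oligodendrocyte were read from lists. Over all genes tested, 1.09% were called with age in AL mice, 0.290% in IF mice and 2.30% averaged over the diets. In AL mice 7554 of all 15864 genes had a log2 fold change above 0. Of 23 other myelin proteins, 5 were called with age in AL mice, all higher in old mice, and 19 had a log2 fold change above 0, with a median of 0.25. Pmp22, a tetraspan protein better known from peripheral myelin, rose by 0.65 (edgeR FDR 0.000534), Anln, which codes for a binding partner of septins in myelin, by 0.86 (FDR 0.00587), the small heat shock protein gene Cryab by 0.51 (FDR 0.0195), Car2, carbonic anhydrase of oligodendrocytes, by 0.33 (FDR 0.00735) and the tetraspanin gene Cd9 by 0.39 (FDR 0.0840), all on the log2 scale. In IF mice Pmp22 (0.46, FDR 0.0922) and Car2 (0.47, FDR 0.00102) were called upwards and the tetraspanin gene Tspan2 downwards (-0.39, FDR 0.0572), and the median of the 23 was 0.08. Tspan2 was at 243, 263 and 264 CPM in young and at 186, 183, 215 and 201 CPM in old IF mice, which did not overlap. Averaged over the diets 8 were called upwards, the 5 of AL mice with Hapln2, a link protein of the node (0.43, FDR 0.0589), the septin gene Sept4 (0.22, FDR 0.0360) and Padi2, an enzyme that citrullinates basic protein (0.36, FDR 0.0482), and Tspan2 downwards (-0.29, FDR 0.00952). In AL mice Pmp22, Anln and Car2 were called in 25 of 25 alternatives.

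Several of these calls rested on single mice or on the model. With a replicate block Cd9 in AL (FDR 0.110), Tspan2 (FDR 0.165) and Pmp22 (FDR 0.227) in IF mice and the averaged value of Hapln2 (FDR 0.107) were lost, and with the lane as a covariate Pmp22 in IF mice (FDR 0.374) and Hapln2 averaged (FDR 0.160). Cd9 was also lost by limma (FDR 0.284) and in a fit of the 2 AL groups alone (FDR 0.266). In AL mice Cryab was lost without old AL mouse 3 (0.44, FDR 0.108), and Cd9 was lost without any 1 of 10 mice (FDR 0.108 to 0.285): young AL mice 1, 3 and 4, young IF mouse 3, old AL mice 1, 3 and 4 and old IF mice 1, 2 and 4. In IF mice Tspan2 was lost without any of the 3 young IF mice or old IF mice 1, 2 or 4 (FDR 0.130 to 0.315), and Pmp22 without any of the 3 young IF mice, young AL mouse 1, old AL mice 2, 3 or 4 or old IF mice 1, 2 or 3 (FDR 0.105 to 0.512). Averaged over the diets, Sept4 was lost without young IF mouse 2 (FDR 0.133), Hapln2 without that mouse, old AL mouse 2 or 3 or old IF mouse 2 or 3 (FDR 0.107 to 0.202), and Padi2 without young IF mouse 2 or 3, old AL mouse 3 or old IF mouse 2 (FDR 0.103 to 0.142).

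Of 8 genes of myelin lipid synthesis, Aspa, whose enzyme frees acetate from N-acetylaspartate, was called in AL mice (0.43, edgeR FDR 0.0540) and none in IF mice (edgeR, none at an unadjusted p under 0.05). Of 10 oligodendrocyte transcription factors, Myrf, a driver of myelin gene expression, was called in AL mice (0.52, FDR 0.0464), and none in IF mice. At an unadjusted p under 0.05 edgeR gave 1 of the 10 in IF mice, downwards, beside 5.74% of all genes. Myrf was lost without young AL mouse 2 or 3 or old AL mouse 1 or 3 (FDR 0.107 to 0.222), by limma (FDR 0.165) and in the fit of 2 groups (FDR 0.188). Aspa was lost without young AL mouse 2 or 4 or old AL mouse 1, 2 or 4 (FDR 0.110 to 0.229) and in the fit of 2 groups (FDR 0.198). Both were called averaged over the diets, Myrf with 0.35 (FDR 0.0612) and Aspa with 0.31 (FDR 0.0422). There Myrf was lost with a replicate block (FDR 0.112), with the lane (FDR 0.128) and without young AL mouse 2, young IF mouse 2 or 3, old AL mouse 3 or old IF mouse 2 or 3 (FDR 0.101 to 0.169), and Aspa without young IF mouse 1 or 2 (FDR 0.129 to 0.157). Beside 1.09% of all genes, 6 of 18 other genes of mature oligodendrocytes were called in AL mice. These 6 were all higher in old mice: Apod (0.84, FDR 1.12e-06), Ndrg1 (0.56, FDR 0.000129), Plekhb1 (0.39, FDR 0.00330), Trf (0.64, FDR 0.00387), Klk6 (0.77, FDR 0.0188) and Evi2a (0.40, FDR 0.0660). Klk6 was lost without old AL mouse 2 (0.61, FDR 0.109) and in the fit of 2 groups (FDR 0.108). Evi2a was lost without young AL mouse 2 or 4 or old AL mouse 1, 2 or 3 (FDR 0.122 to 0.197), with the lane (FDR 0.126) and in the fit of 2 groups (FDR 0.253), and the other 4 were called in 25 of 25 alternatives. In IF mice 15 of the 18 had a log2 fold change above 0, with a median of 0.24, beside 16 and a median of 0.25 in AL mice. At an unadjusted p under 0.05 edgeR gave 8 of the 18 in IF mice, all upwards, beside 5.74% of all genes. Apod, which codes for a lipid-binding lipoprotein, was the 1 gene of this list also called in IF mice (0.76, FDR 3.43e-05). It was at 182 to 216 CPM in young and 313 to 391 CPM in old AL mice, and at 184 to 212 CPM in young and 313 to 356 CPM in old IF mice. With both diets averaged, Qdpr (0.20, FDR 0.0393) and Serpinb1a (0.38, FDR 0.0832) were called as well. Qdpr was lost without young IF mouse 2 (0.18, FDR 0.147) and with the lane (FDR 0.117). Serpinb1a was lost by limma (FDR 0.106), with a replicate block (FDR 0.162), with the lane (FDR 0.192) and without any 1 of 13 of the 15 mice, all but young AL mouse 4 and old AL mouse 4 (FDR 0.103 to 0.200).

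Among 13 genes of oligodendrocyte precursors and newly formed oligodendrocytes, 2 had a log2 fold change above 0 averaged over the diets, with a median of -0.15, and Gpr17, a receptor of cells that are about to mature, fell by 0.56 (SE 0.104, edgeR FDR 0.00468). Gpr17 was at 48.8 to 57.2 CPM in young AL, 47.9 to 67.0 CPM in young IF, 28.8 to 44.96 CPM in old AL and 30.2 to 47.1 CPM in old IF mice, so that the old mice lay below the young ones under both diets. Its call was kept in 24 of 24 alternatives. Itpr2, a calcium channel gene of newly formed oligodendrocytes, had the next smallest p, with 0.31 (SE 0.0971, edgeR FDR 0.158), not called. No gene of this list was called in AL or in IF mice alone by edgeR, with 3 and 2 at an unadjusted p under 0.05, beside 9.52% and 5.74% of all genes, while DESeq2 and limma called 1 under each diet.

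**Figure D4:**
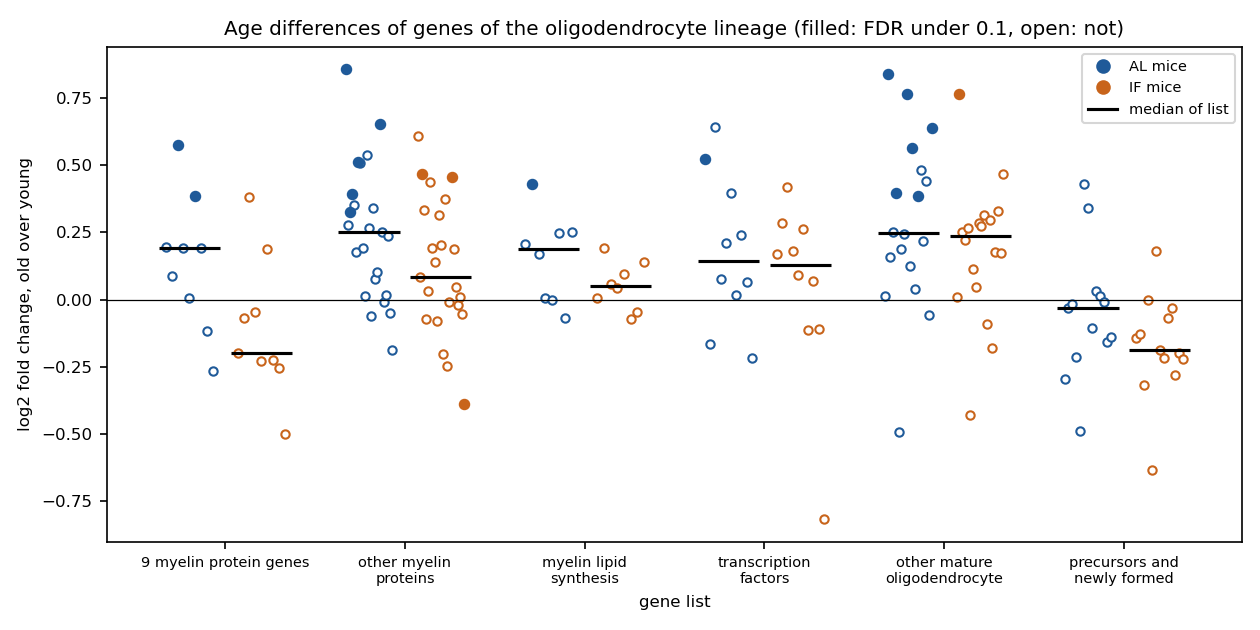
Log2 fold changes of old over young mice in AL (blue) and IF mice (orange) for the 9 myelin protein genes and 5 lists of other genes of the oligodendrocyte lineage. Each point is 1 gene, filled where edgeR's FDR was under 0.1, and black lines are medians. The medians of the 9 genes are 0.19 in AL and -0.20 in IF mice.

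Markers of other cells and brain parts were read beside these genes. The share of all genes called with age was 1.09% in AL and 0.290% in IF mice. Of 8 microglia markers, 2 were called upwards in each diet, none was at 0, and their summed level was 351 to 385 CPM in young and 444 to 506 CPM in old AL mice, and 347 to 369 and 426 to 486 CPM in IF mice. Of 8 astrocyte markers, 2 were called upwards in AL and 1 in IF mice, with summed levels of 5162 to 5750 CPM in young and 5543 to 6093 CPM in old AL mice, and 5409 to 5889 and 5326 to 5804 CPM in IF mice. None of 10 neuron markers was called. Their interaction of age and diet was above 0 in 9 of 10. In young mice 0 of the 10 were above 0 for IF over AL. The sum of the 10 was highest in young AL mouse 3, with 10850 CPM against 8723 to 9717 CPM in the other mice. These neuron marker counts were not taken without that mouse. Of 3 pituitary markers, 2 (Gh and Prl) were called upwards in AL mice (FDR 0.0187 and 0.0779) and none in IF mice. Their sum with Pomc was 981 CPM in old AL mouse 4 and at most 17.2 CPM in the other 14 mice, with Prl at 0 in 9 of them. Without that mouse the age difference of Ermn in AL mice was 0.64 (edgeR FDR 0.0103) and that of Mbp was 0.41 (FDR 0.0826). The sum of 4 olfactory bulb markers was 134 to 193 CPM in young and 88.3 to 149 CPM in old AL mice, and 107 to 176 and 87.04 to 181 CPM in IF mice, and none of the 4 was called. None of 5 choroid plexus, 6 endothelium and 5 cerebellum markers tested was called with age in either diet. The choroid plexus sum was lowest in young AL mouse 3, with 330 CPM against 457 to 1226 CPM in the other mice. The cerebellum sum was highest in old AL mouse 3, with 276 CPM against 194 to 253 CPM in the other mice. The call of Mbp was lost without that mouse and also without old AL mouse 2, which had the lowest sum. It was lost as well without young AL mouse 2 or 3, with 237 and 227 CPM. Endothelium sums lay between 185 and 238 CPM. The part of these cells and tissues in the results was not tested. Markers of Schwann cells, which make peripheral myelin, summed to at most 4.07 CPM in any mouse, with Pmp2 at 0 in all mice, so that these markers were near 0 throughout. Of 8 markers of hindbrain and spinal cord, 7 were too low to be tested, and their sum ranged from 0.252 to 20.0 CPM between mice.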

How the data were processed

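RNA from whole brain was sequenced as single-end reads, 1 library per mouse. Per the study's methods, the authors aligned the reads to GRCm38 with STAR and counted them per gene with featureCounts. The file headers give its version as 1.5.0-p1, with Ensembl release 79 and a mapping quality of at least 5. The counting took primary alignments on the reverse strand. The deposited values are whole-number counts per gene, not normalized, with gene length and coordinates beside them. The tool and build names are those of the submitters' processing notes where given. Each value sums all transcripts of a gene, and the Mbp locus also makes transcripts in other cells.

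Counts were scaled by TMM and tested over 15864 genes that passed filterByExpr with edgeR's quasi-likelihood test (edgeR 4.0.16, R 4.3.3), with 1 mean per group over all 15 mice and 7 contrasts. P-values were adjusted by Benjamini-Hochberg over all genes tested (FDR), and genes with an FDR under 0.1 were called. SE was taken as the log2 fold change over the square root of F, and intervals are 95% and unadjusted. CPM and RPKM use the TMM library sizes, RPKM the exon length of the files, and log2 CPM a prior count of 2. The libraries held 5198748 to 13610729 counts (median 9886766). Symbols were matched for 42462 of 43629 genes, 17360 genes had no count, and 1 gene of the precursor list was not matched. Alternatives were DESeq2 1.42.0, limma 3.58.1 (voom with quality weights), other scalings and filters, an FDR of 0.05, lane and replicate terms, and leaving out each mouse in turn. The fit was tested on simulated data. The text names all 9 genes, every called gene of the 5 oligodendrocyte lists and up to 4 genes of such a list by smallest p, and the 5 genes most like the mean of the 9. The members and lists were chosen with earlier results of these data known. No sequence of proteins was used here, and the promoter of Mbp was not analysed here.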

Additional observations from a re-analysis of the deposited data

Results flagged for a closer look

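In groups of 4 mice, 6 of the 27 combinations of gene and group held 1 mouse far from the other 3, by the gap to its nearest neighbour as a share of the range of the group (above the critical value of Dixon's test for 4 samples). Chance alone gives about 1 such mouse in 20 groups that are independent. The 27 combinations share the same libraries and are not 27 independent tests, so the count was not compared with chance. Mag in young AL mouse 4 was high, with a share of 0.964. Mobp was high in young AL mouse 1 (0.889) and in old IF mouse 4 (0.843). Cldn11 was low in young AL mouse 3 (0.884), the library that stood apart. Mog was low in old AL mouse 1 (0.863), and Opalin was low in old IF mouse 4 (0.832). The young IF group of 3 mice was not examined in this way.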

How the results depend on the processing

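Of 2 members called with age in AL mice, 1 remained at an FDR of 0.05, with the lane as a covariate, with a replicate block and in a fit of the 2 groups alone, and 1 to 3 were called when a mouse was left out. In IF mice 1 member was called when every gene with a count was tested (Ermn, 0.39, FDR 0.0102) and 1 by limma (Mog, -0.26, FDR 0.0915), against 0, and 0 without any 1 mouse. Averaged over the diets, the 2 calls became 3 with every gene (Opalin, FDR 0.0178) or DESeq2, and 1 to 3 without a mouse. No alternative called a member for diet or the interaction. The interaction of each member kept its direction in all 216 alternatives, of which those at an FDR of 0.05 were no refit and could not change it. The refits used mostly the same mice, so they are no independent support. The sizes moved, from -0.388 to -0.0632 for Opalin, -0.265 to -0.107 for Mbp and -0.529 to -0.376 for Mobp.

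Values near 0 changed sign, all uncalled. The age difference of Cldn11 averaged over the diets was -4.61e-05 with scaling factors from the other genes, -0.0512 by limma, -0.0172 with a replicate block and -0.0413 with the lane. In old mice the diet difference was -0.00115 for Mog and 0.0185 for Ermn by limma. Averaged over ages it was 0.017 (replicate block) and 0.0149 (lane) for Cldn11 and -0.00526 for Opalin (replicate block). Leaving out mice gave -0.0345 to 0.058 for Mal with age in AL mice and -0.147 to 0.0506 for Mag in IF mice. For age averaged over diets it gave -0.0516 to 0.0382 for Mobp, -0.0143 to 0.0301 for Cnp and -0.0521 to 0.0287 for Cldn11. For diet in young mice it gave -0.0161 to 0.137 for Mbp and -0.00427 to 0.154 for Mag. For diet in old mice it gave -0.0199 to 0.0355 for Mog, -0.0817 to 0.00718 for Cnp, -0.182 to 0.0806 for Opalin and -0.0852 to 0.0825 for Ermn. For diet averaged over ages it gave -0.0694 to 0.0139 for Mbp, -0.0766 to 0.0112 for Mag, -0.0037 to 0.0644 for Mal, -0.0604 to 0.027 for Cldn11 and -0.0279 to 0.112 for Opalin. The cause was not tested.

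Over all genes, 173 were called with age in AL mice, 444 with every gene tested, 86 in the fit of 2 groups and 102 to 221 without a mouse. In IF mice 46 became 100 with every gene, 70 by DESeq2, 125 by limma and 19 to 76 without a mouse. Averaged, 365 became 229 at an FDR of 0.05, 653 with every gene, 237 with the lane and 216 to 425 without a mouse. For diet, 0 became 26 (young), 27 (old) and 65 (averaged) with every gene, 1 in young mice by DESeq2, and 2 in old mice by limma and with the lane, and the interaction gave 26 with every gene. Mice with the same number did not deviate together (mean r -0.03 over 21 pairs, lowest -0.11, against 0.01 over 63 other pairs), so the numbers were not taken as pairs, and with a replicate block 155 genes were called in AL, 35 in IF and 250 averaged. Refits of the listed genes were added after seeing the data.

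Depth limits Opalin most, the lowest of the 9 in counts. Whole brain mixes all cell types, lane 3 held no young IF mouse, and 1 young AL library stood apart.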
